A study of Mus musculus with 4 samples.

Results

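Alpha-defensins are small cationic antimicrobial peptides, called cryptdins in the mouse intestine, that Paneth cells at the base of small-intestinal crypts store in granules and release into the crypt lumen. They are made as inactive precursors, which in mice the matrix metalloproteinase Mmp7 (matrilysin) cleaves inside the Paneth cell. Paneth cells neighbour the intestinal stem cells, and their loss is a known feature of graft-versus-host disease in mice. The members described here were taken by name. They are every gene row whose symbol begins with Defa, together with AY761184, Gm14851, Gm15293 and Gm7861, which made 26 of 31053 gene rows. The further symbol Gm15284 had no row of its own and is listed by RefSeq as an older symbol of Defa30. RefSeq gives Gm7861 as Defa43, Gm14851 as Defa38 and Gm15293 as Defa41.

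The 4 libraries were droplet-based single-cell 3′ RNA libraries of cells from small-intestinal crypts of female C57BL/6 mice aged 8 to 12 weeks, each from a pool of 3 to 4 mice, taken 7 days after bone marrow transplantation into lethally irradiated recipients. In 2 libraries the marrow came from C57BL/6 donors (syngeneic, the labelled control), and in the other two from BALB/c donors (allogeneic, labelled as mice with graft-versus-host disease). Every sample name starts with KO, a prefix left without explanation in the labels. No group without irradiation or without a transplant was analysed here. Where 4 values follow each other, the first 2 are syngeneic 1 and 2 and the others allogeneic 1 and 2.

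The libraries held 14961466 to 26677842 UMIs (unique molecular identifiers, counted once per captured RNA molecule whatever its length), and 12177 cells were used. Cells were called Paneth-gated when a panel of 7 Paneth genes that holds no defensin (Lyz1, Itln1, Mptx2, Ang4, Pnliprp2, Clps and Habp2) made up at least 3% of their UMIs. The UMIs over which this share is taken include those of the defensins, so the gate is not independent of a cell's defensin share. Epithelial markers (Epcam, Cdh1, Krt8 and Krt18) were all present in the epithelial cells of every library, where they summed to between 5237 and 7431 UMIs per 1000000 UMIs of the summed cells (CPM). Immune-gated cells were 0.593%, 1.42%, 11.9% and 4.46% of the cells used. At most 7 cell barcodes were shared by any pair of libraries. With 2 pools against 2, an exact two-sided permutation test of a single value cannot go below p = 0.3333, so the per-library values are given without such a p.

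All 26 genes lie on chromosome 8 (GRCm38), from Defa21 at chr8:21025545-21026516 to Defa24 at chr8:21734494-21735471, and each has 2 exons in the GENCODE M21 annotation. Their coding sequences fall into a few groups of near-identical copies, joined wherever a pair shares at least 96% of coding bases. The stretches printed next are the last 99 coding bases, in exon 2, which encode the end of the mature peptide, and capitals mark the positions at which the sequences of one set are not all the same. The first set is shown because it holds Defa24, the most counted member, and Defa30, from which it differs at 1 of these positions, beside Defa17 and Defa23, which differ from it at 7 and 6 positions:
Defa24: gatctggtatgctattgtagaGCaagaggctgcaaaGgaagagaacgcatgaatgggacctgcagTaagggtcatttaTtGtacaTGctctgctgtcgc
Defa30: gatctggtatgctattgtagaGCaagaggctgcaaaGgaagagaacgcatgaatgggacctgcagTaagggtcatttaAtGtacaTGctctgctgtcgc
Defa17: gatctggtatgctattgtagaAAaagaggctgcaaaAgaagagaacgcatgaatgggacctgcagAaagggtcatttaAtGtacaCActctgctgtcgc
Defa23: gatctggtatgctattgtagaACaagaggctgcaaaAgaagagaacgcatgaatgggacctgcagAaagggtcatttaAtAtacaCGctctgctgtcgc

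The second set holds Defa22 and Defa21, whose printed ends differ at 1 position and whose whole coding sequences differ at 2, so that their values below are best read as a pair:
Defa22: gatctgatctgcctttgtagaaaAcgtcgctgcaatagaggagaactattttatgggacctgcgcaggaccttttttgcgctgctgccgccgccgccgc
Defa21: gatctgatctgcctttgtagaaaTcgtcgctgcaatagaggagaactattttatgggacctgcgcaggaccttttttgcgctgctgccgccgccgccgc

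The third set holds genes of the cryptdin-related type, in which the cysteine-rich mature part is unlike that of the cryptdins above, and it includes Defa29. Gm14851, Defa29 and Gm7861 differ from AY761184 at 6, 4 and 5 of the printed positions:
AY761184: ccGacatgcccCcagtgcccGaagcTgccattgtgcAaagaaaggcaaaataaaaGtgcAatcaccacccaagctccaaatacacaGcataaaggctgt
Gm14851: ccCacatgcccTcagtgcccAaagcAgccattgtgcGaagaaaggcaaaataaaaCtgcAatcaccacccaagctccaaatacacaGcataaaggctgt
Defa29: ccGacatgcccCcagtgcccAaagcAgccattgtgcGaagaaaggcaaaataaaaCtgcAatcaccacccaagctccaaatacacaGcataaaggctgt
Gm7861: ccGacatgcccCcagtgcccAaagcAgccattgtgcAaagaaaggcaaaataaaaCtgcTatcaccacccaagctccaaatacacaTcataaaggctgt

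The printed stretches lie at chr8:21735276-21735374 (Defa24), chr8:21135402-21135500 (Defa30), chr8:21656540-21656638 (Defa17), chr8:21055820-21055918 (Defa23), chr8:21163054-21163152 (Defa22) and chr8:21026322-21026420 (Defa21), all on the plus strand. Those of AY761184 (chr8:21702631-21702729), Gm14851 (chr8:21095077-21095175), Defa29 (chr8:21326002-21326100) and Gm7861 (chr8:21593490-21593588) lie on the minus strand.

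Such copies limit what a count per gene can mean. For each transcript, the share of its 90-base windows that occur in no other annotated transcript was computed. It was 100% for Defa24 and AY761184, 95.5% for Defa30, 86.6% for Defa29 and 78.6% for Gm14851. Defa21 and Defa22 had 54.7% and 54.8%, with each other as the only gene sharing a window with Defa21. Defa17 had 9.09%, Defa36 5.14%, Gm7861 4.32% and Defa20 0.298%, so counts of these 4 genes may hold molecules of their copies or lose molecules to them. The coding sequences of 5 pairs were identical, namely Defa2 and Defa33, Defa20 and Defa32, Defa23 and Defa31, Defa3 and Defa17, and Defa36 and Defa37. How reads matching several genes were handled is not given in the sources used here.

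**Figure D1:**
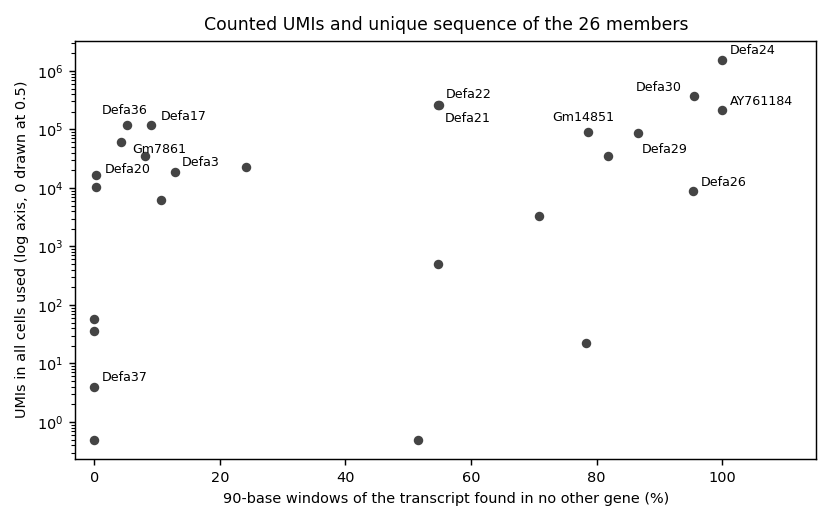
Each point is 1 of the 26 genes; the horizontal axis gives the share of 90-base transcript windows found in no other gene (percent) and the vertical, logarithmic axis the UMIs over all cells used, with 0 drawn at 0.5. Defa24 stands at 100% unique windows and 1552950 UMIs, while Defa36 and Defa17 hold 118412 and 118281 UMIs with few unique windows.

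The family held 3288550 UMIs in the cells used. Defa24 took 47.2% of them, Defa30 11.3%, Defa22 8.01%, Defa21 7.80%, AY761184 6.43%, Defa36 and Defa17 3.60% each, Gm14851 2.78% and Defa29 2.62%. These 9 genes, each with at least 2% of the family, held 93.3% together and are described one by one. The next gene in order, Gm7861, held 1.86%. The remaining 16 ranged from 35471 UMIs (Defa5) down to 0. Defa25 and Defa31 had 0 UMIs in every library, which allows a level of up to 0.0435 CPM over all cells used (3 counts, counting error only). No window of Defa31 was unique, whereas 51.6% of the Defa25 windows were. The annotated Defa25 transcript has 279 bases, of which 276 are coding bases before the stop codon, so it ends with the coding sequence. The same holds for Gm14851, with 351 and 348 bases. Reads of a 3′ library from beyond such an end could go uncounted, and whether this lowered the counts of these genes was not tested.

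Paneth-gated cells were the main site of these RNAs. They gave 93.3%, 95.8%, 88.4% and 76.1% of all alpha-defensin UMIs in the 4 libraries, from 308, 288, 134 and 120 cells. Mmp7, which was left out of the gate, had a UMI in 99.4% of the gated cells of syngeneic 1 and in all of those of the other 3 libraries, against 25.6%, 24.98%, 60.2% and 31.7% of the other epithelial cells. Of the 10 immune panel genes, 1 to 3 had any UMI in the Paneth-gated cells, and the panel summed to between 0.351 and 4.36 CPM there. The goblet panel (Muc2, Fcgbp, Clca1, Zg16 and Tff3) was present with all 5 genes and summed to 5033 and 4410 CPM in the syngeneic and 3903 and 3246 CPM in the allogeneic Paneth-gated cells.

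In the summed UMIs of Paneth-gated cells, the family as a whole took a share between 40.0% and 44.5% in every library. Alpha-defensins made up 40.9% and 44.5% of all UMIs of these cells in the syngeneic libraries and 40.0% and 40.4% in the allogeneic libraries, or 42.7% ± 2.52 against 40.2% ± 0.281 (SD, n = 2). The allogeneic values lie below the syngeneic ones without overlap, and the difference of 2.52 percentage points is as large as the spread between the syngeneic pools. Counted per cell, the family had 3778 and 3939 UMIs in syngeneic and 3245 and 2316 UMIs in allogeneic Paneth-gated cells, while the median total per cell was 8036, 7567, 6356 and 5154 UMIs. Single cells spread widely in each library, with 10% of cells below 5.83%, 8.55%, 3.66% and 4.15% and the highest cell at 81.2% to 83.5%. The median cell held 35.2%, 35.8%, 27.1% and 32.5%, also lower in the allogeneic libraries without overlap. The 10 richest cells held 11.2%, 12.8%, 28.6% and 28.3% of the family UMIs, out of 308, 288, 134 and 120 cells. The size of the difference in the summed share follows the gate, since a panel limit of 1.5% gave -8.28 percentage points and a limit of 6% gave 0.131.

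The number of cells that passed the gate differed more. Paneth-gated cells were 10.8% of epithelial cells in syngeneic 1 (exact 95% binomial interval 9.69% to 12.0%), 11.9% in syngeneic 2 (10.6% to 13.2%), 7.41% in allogeneic 1 (6.25% to 8.72%) and 2.62% in allogeneic 2 (2.18% to 3.12%). The intervals cover counting error only. Both allogeneic pools were below both syngeneic pools, and the pools of the allogeneic group differed from each other by more than the interval of either. Other classes of the same total differed too. Enterocyte-gated cells were 15.9%, 20.5%, 18.5% and 37.7% of epithelial cells, and the enterocyte panel summed to 12450, 15899, 8456 and 27270 CPM in epithelial cells. Barcodes above the mitochondrial limit were 14.6%, 14.9%, 27.2% and 11.2%. The part of these differences in the Paneth-gated share was not tested.

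**Figure D2:**
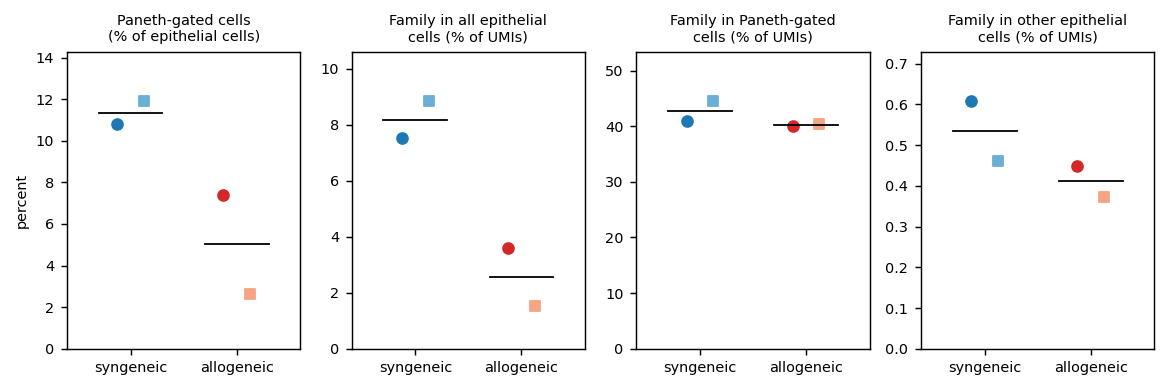
From left to right, the 4 panels give the percentage of epithelial cells that were Paneth-gated and the family's percentage of UMIs in all epithelial, in Paneth-gated and in other epithelial cells, with 1 point per library (circle for the first, square for the second) and a line at each group mean. The Paneth-gated share of UMIs stays between 40.0% and 44.5%, while the share over all epithelial cells is 7.54% and 8.84% against 3.61% and 1.51%.

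Over all epithelial cells together the family was lower in both allogeneic libraries. It made up 7.54% and 8.84% of epithelial UMIs in the syngeneic and 3.61% and 1.51% in the allogeneic libraries (8.19% ± 0.917 against 2.56% ± 1.48, SD, n = 2). In such sums fewer cells of a type and less RNA per cell cannot be told apart. All 21 members that passed the filter on low counts had a lower level in both allogeneic libraries than in either syngeneic one, a pattern that 17.7% of the 12024 genes tested showed in this direction. Defa33, among the 21, had 23 and 29 UMIs in the syngeneic and 3 and 3 in the allogeneic libraries. It passed the filter through the syngeneic libraries alone, so its place in this count was fixed by the filter. The median log2 fold change of the 21 members was -2.05, beside 0.03 over all genes tested. edgeR's quasi-likelihood test with Benjamini-Hochberg adjustment called 0 of the 21 (0.0166% of all genes were called lower), while all 21 had an unadjusted p under 0.05 (9.88% of all genes) and DESeq2 called 21 lower (1.13% of all genes). Leaving out a library changed the edgeR count to 4 without syngeneic 1, 3 without syngeneic 2, 22 without allogeneic 1 and 21 without allogeneic 2. In those fits 0.268%, 0.263%, 21.4% and 11.8% of all genes were called lower.

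The family's composition in Paneth-gated cells also differed, with more of it in Defa24 in the allogeneic libraries. Defa24 held 42.2% and 43.4% of the family's UMIs in the syngeneic libraries and 47.7% and 62.8% in the allogeneic libraries (42.8% ± 0.861 against 55.3% ± 10.7, SD, n = 2). The groups do not overlap, and the second allogeneic library stood far above the first. Joined with its near copies Defa30, Defa17, Defa3, Defa23 and Defa31, it held 58.7%, 59.0%, 64.0% and 77.1%. The pair Defa21 and Defa22 held 17.8%, 17.6%, 16.8% and 7.34%, and the cryptdin-related group AY761184, Gm14851, Defa29 and Gm7861 held 16.0%, 14.8%, 12.4% and 7.10%. In both of these groups the allogeneic values lie below the syngeneic ones, with the first allogeneic library nearer to the syngeneic pair and the second well below it. The group of Defa36, Defa34, Defa5, Gm15293, Defa35 and Defa37 overlapped between the groups, at 6.26%, 7.37%, 5.85% and 7.86%. A sum over near copies does not depend on how reads were split among those copies. It would still depend on any reads dropped for matching several genes. It also depends on reads shared with genes outside the sum, such as Gm7849, with which Gm7861 shares windows.

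Among 21 members tested in Paneth-gated cells, 16 had a negative and 5 a positive log2 fold change (allogeneic against syngeneic), with a median of -0.36, beside 0.02 over the 7777 genes tested. Many members are near copies, and all were read from the same cells. Counts of members, in this and the other gates, are therefore not counts of independent observations. Only Defa29 passed edgeR's test, and it was lower, where 0.0643% of all genes were called lower and 1.07% higher. DESeq2 also called 1 member lower, Defa29 (0.0257% of all genes), and 7 members had an unadjusted p under 0.05 (9.95% of all genes). In 14 members both allogeneic libraries were below both syngeneic ones (20.9% of all genes), and in 1, Defa23, both were above (16.8%). The 14 include Defa33, at a mean of 9.20 CPM in the syngeneic and 3.56 CPM in the allogeneic libraries. It passed the filter through the syngeneic libraries alone, so its direction was fixed by the filter. The 5 members that did not pass the filter on low counts were Defa2, Defa25, Defa27, Defa31 and Defa37, each with at most 36 UMIs in all.

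Defa29, the cryptdin-related gene at chr8:21325887-21327020, stood at 13026 and 14519 CPM in the syngeneic and at 6194 and 3111 CPM in the allogeneic Paneth-gated cells. Both allogeneic values lie far below either syngeneic value, and the second is the lowest. The log2 fold change was -1.55 (SE 0.32, adjusted p = 0.0308, edgeR quasi-likelihood test). The call was lost without syngeneic 1 (adjusted p = 0.0796), without syngeneic 2 (0.480) and with a mitochondrial limit of 10% (0.0634), and the direction held in every alternative run, with adjusted p from 1.42e-05 to 0.480. Fewer cells showed the gene at all. After thinning each cell to 2000 UMIs, 63.7% and 60.5% of syngeneic and 36.2% and 16.1% of allogeneic Paneth-gated cells had a Defa29 UMI, and without thinning 66.9%, 61.8%, 39.6% and 19.2%.

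The other genes of this sequence group did not pass the test. AY761184 stood at 28748, 29735, 26084 and 18304 CPM (log2 fold change -0.36, SE 0.27, adjusted p = 0.729, edgeR). Gm14851 stood at 13835, 12596, 11647 and 4999 CPM (-0.65, SE 0.33, adjusted p = 0.563, edgeR). In both genes the groups do not overlap, and the first allogeneic library lies near the syngeneic values. Without allogeneic 1, which leaves the second allogeneic library alone and assumes that it varies like the other group, Gm14851 passed (-1.28, adjusted p = 0.00109, edgeR). Gm7861, of whose sequence only 4.32% of windows are its own, stood at 9653, 9059, 5478 and 2216 CPM, also without overlap (-1.26, SE 0.35, adjusted p = 0.141, edgeR). It passed without allogeneic 1 (-1.95), without allogeneic 2 (-0.81) and in 3 further alternatives. Whether these fold changes differ from that of Defa29 was not tested.

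Defa24 itself, at chr8:21734494-21735471, stood at 172563, 193011, 190762 and 253573 CPM. It was the most abundant RNA of the family in every library. The groups overlap, and its log2 fold change of 0.34 (SE 0.29, adjusted p = 0.787, edgeR) did not pass. With the panel limit at 1.5% the fold change was -0.12. Defa30, its nearest copy, stood at 50503, 51133, 48393 and 38196 CPM (-0.19, SE 0.27, adjusted p = 0.891, edgeR), without overlap. Defa17 stood at 13818, 14771, 13510 and 15880 CPM (0.09, SE 0.28, adjusted p = 0.957, edgeR), with overlap. Its fold change was -0.07 without syngeneic 1, -0.13 without allogeneic 2 and -0.38 at the lower panel limit.

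Defa22 stood at 36272, 39471, 34063 and 17121 CPM, and Defa21 at 36557, 38752, 33235 and 12507 CPM. The pair had like values in the first 3 libraries, and both were lowest in the second allogeneic library. Their log2 fold changes were -0.55 (SE 0.31) and -0.71 (SE 0.36), with adjusted p of 0.626 and 0.551 (edgeR), and neither passed. Without allogeneic 1 both passed, at -1.03 (adjusted p = 0.0206) and -1.47 (0.00111). Defa36 stood at 13103, 17814, 13076 and 21413 CPM (0.21, SE 0.33, adjusted p = 0.907, edgeR), with overlap. Its sign turned without syngeneic 1 (-0.10), without allogeneic 2 (-0.30) and at the lower panel limit (-0.30).

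**Figure D3:**
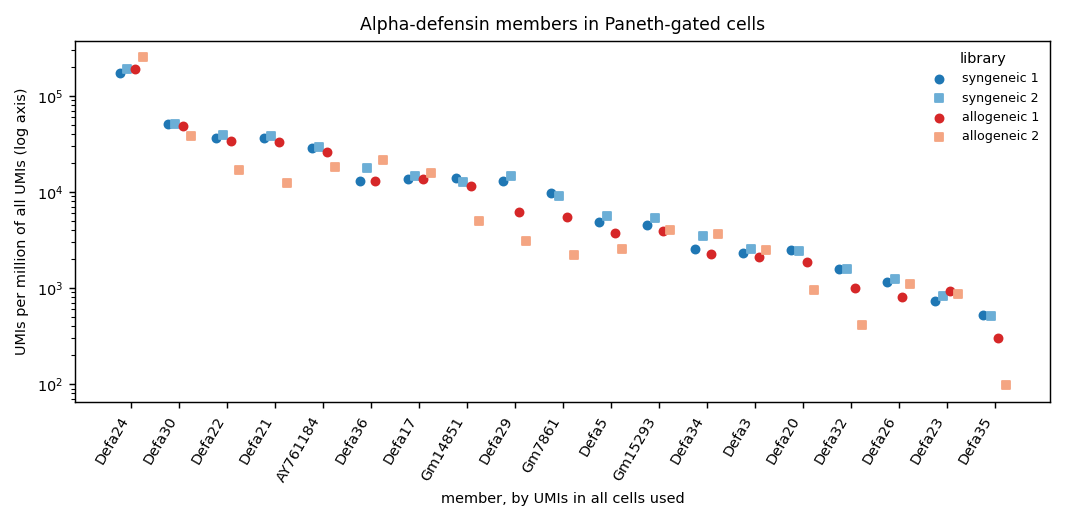
Levels (CPM, logarithmic axis) of the 19 members with at least 3000 UMIs in Paneth-gated cells, 1 point per library, coloured by group. The second allogeneic library is the lowest point for Defa21 (12507 CPM), Defa22, AY761184, Gm14851 and Defa29 (3111 CPM) and the highest for Defa24 (253573 CPM), Defa36 and Defa17.

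Defa24 also held a larger share cell by cell. Among Paneth-gated cells with at least 20 family UMIs, the median share of Defa24 in a cell's family UMIs was 51.3% and 54.2% in the syngeneic and 70.0% and 77.4% in the allogeneic libraries (52.7% ± 2.1 against 73.7% ± 5.24, SD, n = 2). With at least 100 family UMIs it was 50.8%, 53.4%, 70.0% and 77.1%. Cells in which Defa24 held under 50% of the family were 47.1%, 44.3%, 35.8% and 10.1%. The groups do not overlap, and in this measure the first allogeneic library stood closer to the second than to the syngeneic pair.

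**Figure D4:**
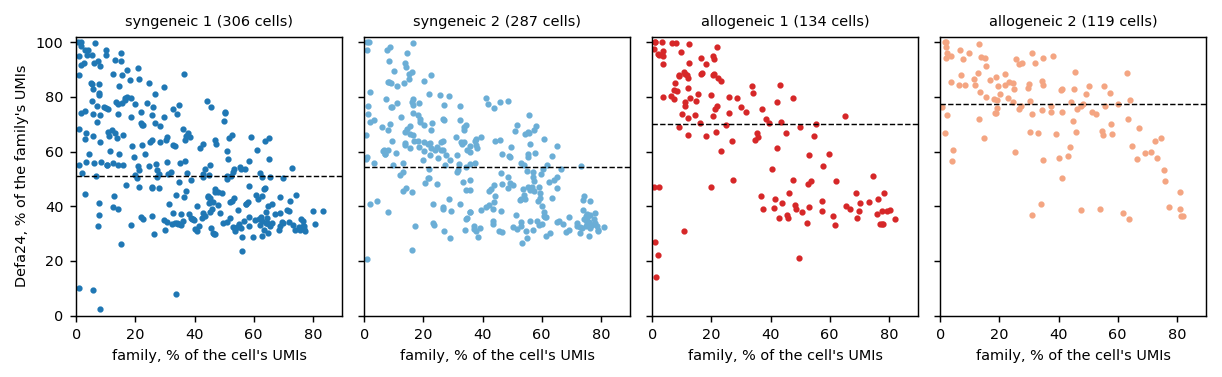
Each point is 1 Paneth-gated cell with at least 20 family UMIs, placed by its family share of UMIs and by the Defa24 share of its family UMIs (both percent), with 1 panel per library and a dashed line at the library's median of 51.3%, 54.2%, 70.0% or 77.4%. Cells rich in alpha-defensins lie at lower Defa24 shares in each panel.

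The median number of different members per Paneth-gated cell was lower in the allogeneic libraries, with identical copies counted as different members. After thinning to 2000 UMIs, the median Paneth-gated cell had UMIs of 17 and 16 members in the syngeneic and of 10 and 8 members in the allogeneic libraries, and without thinning of 18, 18, 11 and 9.5. Thinning left out 5, 7, 7 and 8 cells with fewer UMIs. Cells with 15 or more members were 65.3%, 63.3%, 37.8% and 23.2%. Members differed in this. Defa24 was found in 100% of thinned cells of every library and Defa17 in 97.4%, 97.2%, 92.9% and 96.4%. Defa21 was found in 68.3%, 67.6%, 40.9% and 22.3%, Defa30 in 77.2%, 76.2%, 52.0% and 37.5%, and Gm14851 in 53.8%, 50.9%, 33.1% and 14.3%. Thinning evened the total UMIs of cells and not their family UMIs. In cells with a family share of 50% or more, the median after thinning was 19, 18, 19 and 15.5 members. Between 20% and 50% it was 17, 16, 11 and 8.5, and under 20% it was 7, 8, 5 and 4.

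In cells with little alpha-defensin RNA, Defa24 held a larger share of it. In Paneth-gated cells whose family share was under 20%, Defa24 held 65.3%, 68.5%, 80.4% and 83.7% of family UMIs. Between 20% and 50% it held 45.2%, 48.8%, 52.3% and 70.9%, and from 50% upward 38.3%, 39.4%, 41.6% and 55.3%. The order of the 3 classes was the same in all 4 libraries. Within each of these wide classes the allogeneic values lie above the syngeneic ones, in the highest class by as little as 41.6% against 39.4%, and the family share of the cells was not matched between libraries within a class. These classes share their family counts with the quantity compared and are given as a description. The low class held 30.2%, 26.7%, 37.3% and 31.7% of the gated cells.

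Alpha-defensin UMIs were also counted outside the Paneth gate. Other epithelial cells had a family share of 0.607%, 0.460%, 0.449% and 0.373%, with a median depth of 4322, 4060, 5538 and 4040 UMIs per cell. Immune-gated cells, which should lack these RNAs, had 0.0591%, 0.0327%, 0.145% and 0.0130%, at median depths of 1619, 1376, 1630 and 1675 UMIs. They were 17, 35, 244 and 214 cells with 29, 27, 908 and 65 family UMIs. The 4 epithelial markers summed to 5742, 2616, 699 and 2795 CPM in them. Whether their family UMIs came only from free RNA captured with any cell was not tested. In allogeneic 1 a single immune-gated cell held 76.7% of that class's family UMIs. A family UMI was found in 75.2%, 61.4%, 53.0% and 38.5% of other epithelial cells and in 76.5%, 37.1%, 27.9% and 20.6% of immune-gated cells. Most of the family UMIs of other epithelial cells lay in a minority of these cells. Those whose Paneth panel was at least 0.5% of UMIs were 218, 207, 187 and 258 cells. They held 83.3%, 82.9%, 85.7% and 85.0% of the family UMIs of other epithelial cells. Enterocyte-gated cells, marked by absorptive genes, had 0.0803%, 0.0287%, 0.0253% and 0.0128%. That is below the immune-gated level in 3 of 4 libraries, in allogeneic 2 by as little as 0.0128% against 0.0130%. In syngeneic 1 it is above that level, and a single enterocyte-gated cell held 56.8% of the class's family UMIs there. Whether the family UMIs of enterocyte-gated cells are background was not tested.

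Goblet-gated cells, which make mucus, had family shares of 0.800%, 1.13%, 0.994% and 0.742%, above the enterocyte-gated and immune-gated cells of the same library, and their mixture of members was unlike that of the summed Paneth-gated cells. These are shares of summed UMIs. The median goblet-gated cell had 0.0977%, 0.0778%, 0.111% and 0%, and 61 of 382, 88 of 374, 48 of 176 and 140 of 262 cells had no family UMI. Defa24 held 83.2% of the family there in syngeneic 1 (exact 95% binomial interval 82.6% to 83.7%), 78.6% in syngeneic 2 (78.0% to 79.1%), 89.5% in allogeneic 1 (88.9% to 90.1%) and 93.8% in allogeneic 2 (93.3% to 94.3%). Defa17 came next with 10.1%, 8.36%, 6.32% and 2.65%. Defa21 and Defa22, each near 9% of the family in syngeneic Paneth-gated cells, held at most 1.07% each. The Defa24 share was above that of the summed Paneth-gated cells of the same library in all 4 libraries, while Paneth-gated cells with a family share under 20% had 65.3%, 68.5%, 80.4% and 83.7%. The intervals cover counting error only and treat the UMIs of a cell as independent. UMIs were concentrated in few cells, with the 10 richest goblet-gated cells holding 34.8%, 42.9%, 47.9% and 79.8% of them. Mmp7 had a UMI in 79.3%, 81.6%, 93.8% and 85.9% of goblet-gated cells.

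**Figure D5:**
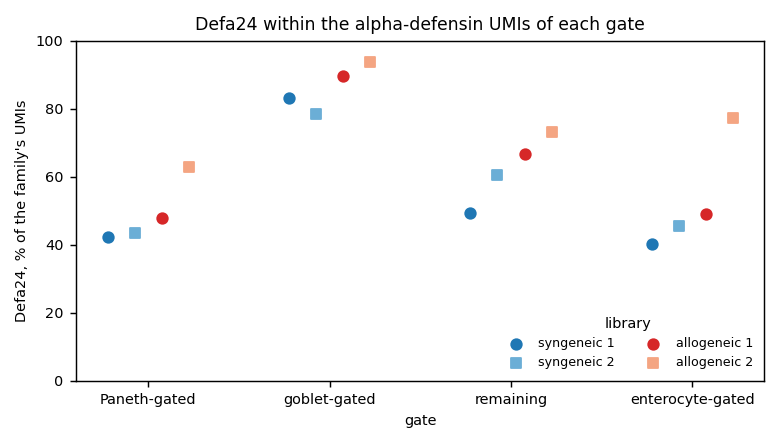
Share of Defa24 in the family UMIs (percent) by cell gate, with 1 point per library. Goblet-gated cells stand highest in every library (78.6% to 93.8%) and Paneth-gated cells between 42.2% and 62.8%.

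In other epithelial cells as a sum, 19 of 20 tested members had a negative log2 fold change, with a median of -0.84 beside 0.01 over 11869 genes. edgeR called 0 (0.0421% of all genes were called lower), 8 had an unadjusted p under 0.05 (9.72% of all genes) and DESeq2 called 6 lower (1.0% of all genes). In 13 members both allogeneic libraries were below both syngeneic ones (23.1% of all genes). Leaving out syngeneic 2 gave 4 calls, leaving out allogeneic 1 or allogeneic 2 gave 6 each, and leaving out syngeneic 1 gave 0. Of all genes, 0.267%, 20.8%, 13% and 0.254% were called lower in these fits without syngeneic 2, allogeneic 1, allogeneic 2 and syngeneic 1. The share of immune-gated cells and the family share within them also differed between libraries, and the part of either in these values was not tested.

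Whether the allogeneic effect differed between Paneth-gated and other epithelial cells was tested with library as a block. Of 23 members tested 1 passed, Defa20 (higher in 0.411% of all genes), one of a group of 4 near copies. Defa20 stood at 2503, 2445, 1870 and 961 CPM in Paneth-gated cells and at 22.7, 17.3, 9.36 and 3.45 CPM in the others. Its log2 fold change was -0.78 (SE 0.31) in the former and -1.63 (SE 0.38) in the latter, where adjusted p was 0.419 and 0.236 (edgeR), and the difference between them was 0.85 (SE 0.19, adjusted p = 0.0410, edgeR). No call was made for Defa20 without syngeneic 1 (adjusted p = 1), without syngeneic 2 (0.153), by DESeq2 (0.659) or in 4 further alternatives.

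The upstream sequence of the members was read from RefSeq promoters (GRCm38.p6, 250 bases before to 50 after each start). These matched 15 of the 26 members, among them Defa30, Defa22, Defa21, Defa36 and Gm14851. No promoter was matched for Defa24, AY761184, Defa17 or Defa29, so the motif counts do not cover the most counted member or Defa29. The motifs searched, on both strands, were CTTTGAT and CTTTGAA, the letters recognised by the Wnt-dependent Tcf/Lef factors, together with TATAAA, the TATA box. CTTTGAT was found in 13 of 15, all on the opposite strand as ATCAAAG, beside 3.73% of 32851 promoters of the same length. Promoters of near copies can be alike, as those of Defa22 and Defa21 below, so the 15 are not independent observations. CTTTGAA was found in 0 of 15 (5.14% of all promoters), and TATAAA in 14 of 15 (13.6%). The members without CTTTGAT were Gm14851 and Gm7861, both of the cryptdin-related group. The 160 bases before the start are printed for Defa22 (chr8:21162117-21162276, plus strand) and Defa30 (chr8:21134490-21134649, plus strand), with both motifs in capitals, because the same 160 bases of Defa21 are identical to those of Defa22:
Defa22: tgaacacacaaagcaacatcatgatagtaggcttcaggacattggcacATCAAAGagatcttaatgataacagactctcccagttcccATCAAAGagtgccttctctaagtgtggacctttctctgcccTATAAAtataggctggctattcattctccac
Defa30: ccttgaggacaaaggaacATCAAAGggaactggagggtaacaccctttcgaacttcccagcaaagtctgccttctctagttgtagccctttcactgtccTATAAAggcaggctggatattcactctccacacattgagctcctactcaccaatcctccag

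TATAAA begins at -31 from the RefSeq start in Defa22 and at -61 in Defa30, so the printed stretches are not in the same register. A match is a description of letters and not a binding site.

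Genes around the alpha-defensins were read from lists. Of 17 other Paneth antimicrobial and granule genes 12 were tested in Paneth-gated cells, where 1 rose, 1 fell and the median log2 fold change was 0.05. The lectin Reg3b fell from 2575 and 1879 CPM to 578 and 444 CPM (log2 fold change -2.07, SE 0.29, adjusted p = 0.00160, edgeR), a call lost without syngeneic 1 (0.0562). Ang4, an antimicrobial ribonuclease that is part of the gate panel, rose from 5948 and 4569 CPM to 10659 and 16533 CPM (1.45, SE 0.31, adjusted p = 0.0398, edgeR). That call was lost without syngeneic 1 (0.486), without syngeneic 2 (0.738) and in 2 further alternatives. The lysozyme gene Lyz1, the most abundant and also a gate gene, stood at 40614, 46687, 31040 and 24834 CPM (-0.61, adjusted p = 0.489, edgeR), and Itln1, a lectin and gate gene, at 26194, 30701, 19358 and 18058 CPM (-0.57, adjusted p = 0.532, edgeR). In other epithelial cells 1 of 13 tested list genes fell, the lectin Reg3a, from 56.2 and 68.6 CPM to 7.20 and 5.07 CPM (-3.25, SE 0.22, adjusted p = 0.0257, edgeR), a call lost with a mitochondrial limit of 10% (0.0536).

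Of 17 genes for processing, packaging and secretion of defensins 13 were tested, and 1 rose. That was Irgm1, an interferon-induced GTPase, at 29.9, 20.8, 57.9 and 92.9 CPM (1.61, SE 0.32, adjusted p = 0.0229, edgeR), called neither without syngeneic 1 (0.211) nor without syngeneic 2 (0.601) nor with the panel limit at 6% (0.0599). Mmp7, which activates the precursors, stood at 2816, 3512, 6673 and 6943 CPM. Both allogeneic libraries lie above both syngeneic libraries, and its log2 fold change of 1.15 (SE 0.29, adjusted p = 0.101, edgeR) did not pass. It passed by DESeq2 (adjusted p = 0.0289), without TMM scaling (0.0315), without allogeneic 1 (0.00113), without allogeneic 2 (5.01e-05) and with the panel limit at 6% (0.0173). All 12 genes for fate and transcription of secretory cells were tested and none was called. The most abundant were the surface protein gene Cd24a (850, 933, 1357 and 887 CPM) and Nupr1 (449, 570, 268 and 441 CPM), both of which passed without allogeneic 2 (0.56 with adjusted p = 0.0180, and -0.98 with adjusted p = 0.000435, edgeR). Of 43 beta-defensin genes and Camp, 1 was tested and rose, Defb1, an epithelial beta-defensin, at 17.9, 10.2, 143 and 129 CPM (3.33, SE 0.32, adjusted p = 0.000101, edgeR).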

How the data were processed

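The authors deposited unscaled UMI counts for each gene in each cell. The submitters' processing notes name Cell Ranger 2.1.1 and the genome build mm10. The matrix headers give software version 3.1.0, and neither the annotation release nor the rule for keeping barcodes is stated in the labels or headers. Of 16565 barcodes, 12285 passed (at least 500 genes and 1000 UMIs, at most 20% mitochondrial counts), and 108 doublets (0.879%) called by Scrublet (scanpy 1.11.5) were removed.

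Immune-gated cells had UMIs of at least 3 of 10 immune genes. Paneth-gated cells had at least 3 of the 7 panel genes and the panel at 3% or more of UMIs. Goblet-gated cells had 1% or more of 5 goblet genes, and enterocyte-gated cells 2% or more of 6 enterocyte genes. The 3 cells in both the immune and the Paneth gate were left out. A cut on a summed level marks a range and not a type, and 45, 21, 27 and 25 gated cells had a panel of 3% to 4%. Outside the gate, 56, 60, 39 and 39 other epithelial cells had a panel of 2% or more.

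Counts were summed per gate and library and tested with edgeR 4.0.16 (filterByExpr, TMM, robust quasi-likelihood fit, R 4.3.3), allogeneic against syngeneic over all genes, with Benjamini-Hochberg adjustment and a threshold of 0.05. The scripts were tested on simulated data. DESeq2 1.42.0, other scalings, filters and gates, and leaving out each library were alternatives. Nothing says that the pools of a group were raised apart, so p-values measure only the spread between these pools. Genes with 2% or more of family UMIs and genes past the threshold in any fit are described one by one, list genes are named where called or by level, and genes named only as parts of a sequence group were named after their values were seen. Members, lists and gates were chosen with earlier results of these data known. Sequences are from GENCODE M21 (GRCm38) and, for promoters, RefSeq (GRCm38.p6), and identities were computed with edlib 1.3.9.post1.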

Additional observations from a re-analysis of the deposited data

Results flagged for a closer look

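The allogeneic effect on Defa20 differed between Paneth-gated and other epithelial cells by 0.85 on the log2 scale in a test of the difference itself (SE 0.19, adjusted p = 0.0410, edgeR), the member being lower in the allogeneic libraries by less in Paneth-gated cells. The Paneth-gated and the other sums of each library gave a level of 2503 against 22.7, 2445 against 17.3, 1870 against 9.36 and 961 against 3.45 CPM. Only 0.298% of the 90-base windows of Defa20 were unique to it, and its coding sequence is identical to that of Defa32, so counts of these copies cannot be told apart. For Defa32 the same difference was 0.67 (SE 0.57, adjusted p = 0.836, edgeR).

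In the same test 3 genes of the lists described above differed, each with a more positive log2 fold change in Paneth-gated than in other epithelial cells. Reg4, a lectin of secretory cells, differed by 1.23 (adjusted p = 0.000116, edgeR), a call lost without syngeneic 1 (0.0784) and with the panel limit at 1.5% (0.230). Clps, the pancreatic lipase cofactor and a gate gene, differed by 1.19 (adjusted p = 0.00869, edgeR), lost without syngeneic 1 (adjusted p = 1), by DESeq2 (0.133) and at 1.5% (0.534). Agr2, a protein disulfide isomerase of secretory cells, differed by 0.81 (adjusted p = 0.00733, edgeR), lost without syngeneic 1 (0.783), without syngeneic 2 (0.735) and in 4 further alternatives.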

How the results depend on the processing

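Syngeneic libraries could not be paired with allogeneic ones because the labels carry no replicate numbers, and those used here only name the libraries. Only the test of the difference between the gates was paired, with library as a block. The edgeR count of members called lower in Paneth-gated cells, 1, was 4 without TMM, 4 without a filter on low counts, 2 with the panel limit at 1.5% and 0 with a mitochondrial limit of 10%, and between 0 and 9 when a library was left out (0 without either syngeneic library, 9 without allogeneic 1 and 5 without allogeneic 2, where 0.568% and 2.58% of all genes were called lower). In other epithelial cells the count of 0 was 6 with DESeq2 and 7 without the filter, and between 0 and 6 without a library. In all epithelial cells the count of 0 was 21 with DESeq2 and 18 without the filter, and between 3 and 22 without a library. Without allogeneic 1, 21.4% of all genes were called lower there. The count of 1 for the difference between the gates was 0 with DESeq2, 0 without TMM, 0 scaled without the members, 0 with the panel limit at 1.5%, 3 without the filter, 6 with the limit at 6% and 4 with a mitochondrial limit of 10%, and between 0 and 7 without a library. The difference in family share in Paneth-gated cells, -2.52 percentage points, was -8.28 with the limit at 1.5%, 0.131 at 6%, -5.71 as a median over cells and -4.31 to -0.742 without a library. In other epithelial cells, -0.123 became -0.751 with the limit at 6% and -0.0256 as a median. In all epithelial cells, -5.63 became -7.41 with a mitochondrial limit of 10% and -0.0314 as a median. The difference of -7.5 members per cell became -6.25 with the limit at 6%. The signs of single genes turned for Defa24 (-0.12 at 1.5%), Defa36 (-0.30 at 1.5%, and -0.30 to 0.58 without a library) and Defa17 (-0.38 at 1.5%, and -0.13 to 0.27 without a library). The difference between the gates for Defa32 was -0.060 to 1.27 without a library. The median Defa24 share per cell differed by 19.8 to 21.7 percentage points over 6 such settings, one of them (at least 100 family UMIs) chosen after seeing the data, and by 17.3 to 24.7 without a library. The causes of these changes were not tested. Precision is limited by 120 to 308 gated cells a library and by 2 pools a group.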

Other observations

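A pair of alpha-defensin genes fell outside the naming rule. Gm15292, which RefSeq names Defa40, had 2039 and 1835 UMIs in Paneth-gated cells of the syngeneic libraries and 664 and 152 in those of the allogeneic libraries. Gm7849, named Defa42, had 38, 54, 8 and 2. These are raw counts that are not scaled for the size of the gate. The Paneth-gated cells held 2845771, 2551769, 1088361 and 688744 UMIs in all, so the raw counts of the libraries cannot be compared directly. Among the beta-defensins, Defb1 had 443 UMIs over all cells used, of which 322 lay in Paneth-gated cells, while Defb37 had 359, of which 17 lay there. Defb40 and Defb39 had 23 and 7.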
